A study of Mus musculus with 15 samples.

Results

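Grhl1 lies on mouse chromosome 12, and 10 genes near it are described here in the kidneys of mice that lack Grhl1. The members are Taf1b, Klf11, Kidins220, Adam17, Itgb1bp1, Asap2, Odc1, Hpcal1, Rrm2 and Gm4419. They make up 10 of the 22180 genes, and 12 of the 23521 probe sets, that the array's annotation gives to a single gene. They were picked from the genes close to Grhl1 with their knockout against wild-type values already known. Those values are therefore given as a description, without a test. The samples were kidneys of mice aged about 6 months, 8 of them Grhl1-/- (knockout replicates 8 to 15) and 7 Grhl1+/+ (wild-type replicates 1 to 7), with 1 expression array for each. Which part of the gene was removed, and the strain, sex and litter of the mice, are not given in the sources used here. All values are log2 summaries from robust multi-array averaging (RMA), in which 1 unit is a doubling of signal, and all genotype differences are knockout minus wild type. In tissue RNA, fewer cells of a type and less RNA per cell cannot be told apart.

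Grhl1 encodes an epithelial transcription factor of the grainyhead family, which binds DNA at sites of the form AACCGGTT. The genes around it have no shared pathway. Taf1b belongs to the factor that recruits RNA polymerase I to ribosomal RNA genes, Klf11 is a Krüppel-like transcriptional regulator inducible by TGF-beta, and Rrm2 is the small subunit of ribonucleotide reductase. Kidins220 is a membrane scaffold of neurotrophin receptors, Adam17 a protease that sheds TNF and EGF receptor ligands, and Itgb1bp1 a binder of the integrin beta 1 tail. Asap2 is a GTPase-activating protein for Arf proteins, Odc1 the first enzyme of polyamine synthesis, Hpcal1 a calcium sensor, and Gm4419 a predicted long non-coding RNA.

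By the order of measured genes along chromosome 12, taken from RefSeq starts in GRCm38.p6, Taf1b is the next gene on the side of lower coordinates and Klf11 the next on the other side. The Taf1b start lies 73.7 kb and the Klf11 start 79.1 kb from that of Grhl1. On Klf11's side follow Rrm2 at position 3 (136 kb) and Kidins220 at position 5 (403 kb). On Taf1b's side follow Gm4419 at position 4 (3.15 Mb), Adam17 at 6 (3.25 Mb), Itgb1bp1 at 9 (3.30 Mb), Asap2 at 10 (3.46 Mb), Hpcal1 at 17 (6.88 Mb) and Odc1 at 18 (7.03 Mb). Of the 20 measured genes within 10 positions on either side, 8 are members and 12 are not. Between Taf1b and Gm4419 only 2 other genes were measured over about 3 Mb, so gene order and distance differ there.

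The promoters of the 5 members within 5 positions of Grhl1 are shown because these genes lie nearest to the deleted gene, and because a grainyhead site was searched in them. Each is a RefSeq sequence of GRCm38.p6, from 250 bases before to 50 bases after the gene's start, with a match to AACCGGTT in capitals.
Gm4419, chr12:21417632-21417931, plus strand: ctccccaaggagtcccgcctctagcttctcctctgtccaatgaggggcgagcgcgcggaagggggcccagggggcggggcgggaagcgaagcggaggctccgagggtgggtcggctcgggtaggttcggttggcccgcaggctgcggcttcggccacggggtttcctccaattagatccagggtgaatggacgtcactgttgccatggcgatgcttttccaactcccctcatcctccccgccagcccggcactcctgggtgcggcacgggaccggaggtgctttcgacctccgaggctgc
Taf1b, chr12:24498331-24498630, plus strand: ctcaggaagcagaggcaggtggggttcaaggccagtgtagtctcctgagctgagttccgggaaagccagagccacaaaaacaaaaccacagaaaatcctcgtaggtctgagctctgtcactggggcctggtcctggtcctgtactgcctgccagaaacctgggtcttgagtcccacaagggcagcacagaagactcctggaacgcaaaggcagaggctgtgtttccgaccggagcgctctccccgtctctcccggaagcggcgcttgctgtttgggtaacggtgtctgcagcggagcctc
Klf11, chr12:24651121-24651420, plus strand: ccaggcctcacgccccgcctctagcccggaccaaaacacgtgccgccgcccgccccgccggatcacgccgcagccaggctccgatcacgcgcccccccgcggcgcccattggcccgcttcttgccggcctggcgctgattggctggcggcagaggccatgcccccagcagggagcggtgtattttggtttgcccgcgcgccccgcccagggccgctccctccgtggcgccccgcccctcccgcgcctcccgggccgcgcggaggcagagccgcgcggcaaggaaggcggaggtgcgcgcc
Rrm2, chr12:24708004-24708303, plus strand: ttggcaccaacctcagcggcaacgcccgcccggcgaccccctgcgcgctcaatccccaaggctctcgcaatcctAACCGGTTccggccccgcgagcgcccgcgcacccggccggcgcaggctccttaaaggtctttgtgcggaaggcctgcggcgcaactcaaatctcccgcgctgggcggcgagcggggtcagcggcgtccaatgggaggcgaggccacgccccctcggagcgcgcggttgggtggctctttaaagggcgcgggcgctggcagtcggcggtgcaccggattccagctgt
Kidins220, chr12:24974682-24974981, plus strand: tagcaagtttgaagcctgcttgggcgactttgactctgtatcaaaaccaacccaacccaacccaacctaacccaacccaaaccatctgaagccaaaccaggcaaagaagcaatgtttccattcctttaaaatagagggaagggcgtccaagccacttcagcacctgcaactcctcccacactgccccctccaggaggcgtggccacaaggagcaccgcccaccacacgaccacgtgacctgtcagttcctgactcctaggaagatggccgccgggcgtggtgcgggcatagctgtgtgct

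Both strands were searched for AACCGGTT and for the looser form AACCNGTT, which includes it. Of the 9 members with a promoter sequence, Rrm2 alone held a match. Its AACCGGTT begins 176 bases before the start site. The exact form occurs in 48 of 32851 RefSeq promoters of this length (0.146%) and the looser form in 686 (2.09%). A match is a run of letters and not a site of binding. The promoters shown range from 56.0% G and C in Kidins220 to 77.7% in Klf11.

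Grhl1 itself read between 4.40 and 4.92 in the knockout kidneys (median 4.73) and between 4.96 and 5.25 in the wild-type kidneys (median 5.05), so every knockout sample lay below every wild-type sample. The difference was small, -0.38 (SE 0.070), 1.30-fold lower in knockouts, and did not pass after adjustment (limma adjusted p = 0.113). The probe set was dim, with a mean of 4.88 where the median over all probe sets tested was 6.18. Markers of proximal tubule and distal nephron were high in all 15 samples, with list means of 12.3 to 12.5 and 11.8 to 12.2. Of the adrenal cortex markers, 5 of 6 were measured. Their mean was 7.42 to 9.74 in 6 samples, knockout replicates 10 to 13 and wild-type replicates 2 and 3, against 4.31 to 4.63 in the other samples. Liver markers were high in 3 samples, knockout replicate 10 and wild-type replicates 3 and 7, and ran from 7.23 to 9.65 in knockouts and from 7.22 to 11.4 in wild types. Fat markers ran from 8.46 to 9.56 in knockouts and from 8.06 to 8.85 in wild types, and podocyte markers from 8.26 to 8.80 and from 8.25 to 8.88. Y-linked transcripts, averaged over 3 measured genes, were present in 10 samples, 5 knockout and 5 wild type, and low in 5, knockout replicates 13 to 15 and wild-type replicates 6 and 7.

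Among the members, 3 had higher means in knockout kidneys (Gm4419, Taf1b and Adam17) and 7 had lower means. In 1 member, Kidins220, the groups did not overlap, where 0.123% of all probe sets are so separated. Differences of at least 0.3 were seen in 5 members, 2 higher and 3 lower, where 1.77% of all probe sets differ by that much. The adjacent pair differed in opposite directions, Taf1b higher and Klf11 lower. On Klf11's side all 3 members were lower. On Taf1b's side the 3 nearest members were higher and the 4 farther ones lower. Of the 10 members, between 3 (knockout replicate 12) and 7 (knockout replicate 15 and wild-type replicate 4) lay outside the other genotype's range in a single sample. The matching share over all probe sets was not computed, so nothing about the members is read from these counts.

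**Figure D1:**
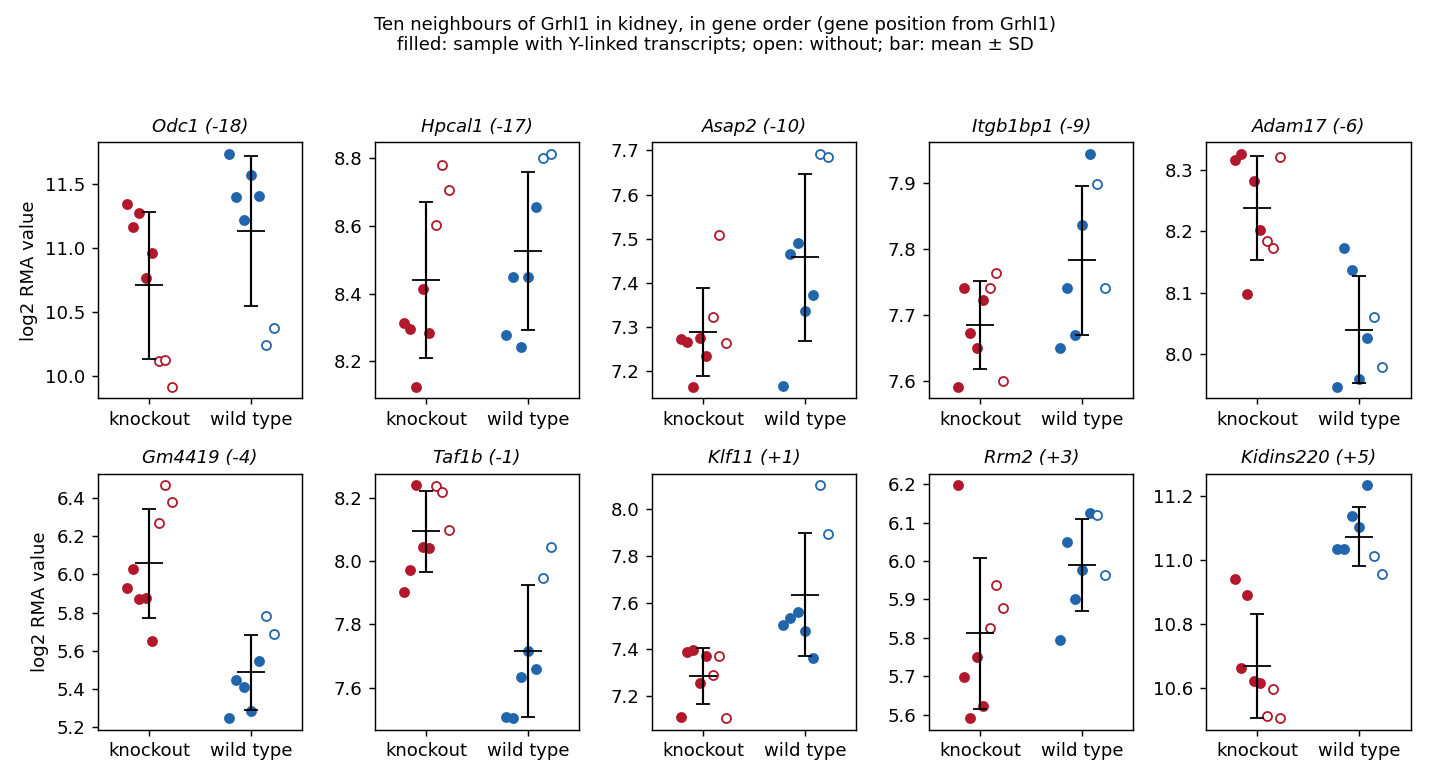
Log2 RMA value of each of the 10 genes, in chromosomal order, in 8 knockout (left, red) and 7 wild-type kidneys (right, blue). Filled points are samples with Y-linked transcripts and open points those without, and bars are the mean ± SD. Kidins220 separates the genotypes entirely, and Gm4419 and Taf1b do so within filled and within open points.

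Kidins220 read from 10.51 to 10.94 in knockout kidneys (median 10.62) and from 10.96 to 11.23 in wild-type kidneys (median 11.03). The lowest wild-type sample lay just above the highest knockout sample. Knockouts averaged 10.7 ± 0.16 (SD, n = 8) and wild types 11.1 ± 0.092 (SD, n = 7). The difference was -0.40 (SE 0.069), 1.32-fold lower in knockouts. The size was 3.02 times the pooled SD within groups, more than in any other member.

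Taf1b read from 7.90 to 8.24 in knockout kidneys (median 8.07) and from 7.50 to 8.04 in wild-type kidneys (median 7.66). The groups overlapped through the wild-type samples without Y-linked transcripts. Among samples with Y-linked transcripts the 5 knockouts (7.90 to 8.24) lay above the 5 wild types (7.50 to 7.72), and among those without, the 3 knockouts (8.10 to 8.24) lay above the 2 wild types (7.95 to 8.04). Knockouts averaged 8.09 ± 0.13 (SD, n = 8) and wild types 7.72 ± 0.21 (SD, n = 7). The difference was 0.38 (SE 0.084), 1.30-fold higher in knockouts. It was 0.43 among samples with Y-linked transcripts and 0.19 among those without.

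Gm4419 had the largest difference of the 10. It read from 5.65 to 6.47 in knockout kidneys (median 5.98) and from 5.25 to 5.78 in wild-type kidneys (median 5.45), and 7 of 8 knockouts exceeded all wild types. Knockouts averaged 6.06 ± 0.28 and wild types 5.49 ± 0.20. The difference of 0.57 had an SE of 0.12 and made a fold of 1.49. Its groups also separated inside both sets of samples, at 5.65 to 6.03 in knockouts against 5.25 to 5.55 in wild types with Y-linked transcripts, and 6.27 to 6.47 against 5.69 to 5.78 without. Kidins220, Taf1b and Gm4419 were the 3 members apart in this way, a pattern sought after the values had been seen, and 0.468% of all probe sets show it.

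Klf11 read from 7.11 to 7.40 in knockout kidneys (median 7.33) and from 7.36 to 8.10 in wild-type kidneys (median 7.54). The 2 wild types without Y-linked transcripts, at 7.89 and 8.10, stood above all other samples. Knockouts averaged 7.29 ± 0.12 and wild types 7.63 ± 0.26, and the difference was -0.35 (SE 0.098), 1.27-fold lower in knockouts. Among samples with Y-linked transcripts it was -0.18 (5 knockouts, 5 wild types), and among those without them -0.74 (3 and 2). The test of this interaction did not pass (limma adjusted p = 0.501, unadjusted p = 0.000551). No probe set passed it, while 1655 of 23521 (7.04%) had an unadjusted p under 0.05. Of the 10 members, Klf11 was the only one under that unadjusted level.

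Adam17 read from 8.10 to 8.33 in knockout kidneys (median 8.24) and from 7.95 to 8.17 in wild-type kidneys (median 8.03), with 6 of 8 knockouts above all wild types. Knockouts averaged 8.24 ± 0.085 and wild types 8.04 ± 0.088, and the difference was 0.20 (SE 0.050). It was the steadiest member across the Y-linked split, at 0.20 with and 0.21 without. Without the 6 samples high in adrenal transcripts it was 0.29.

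Rrm2, whose promoter holds the AACCGGTT, read from 5.59 to 6.20 in knockout kidneys (median 5.79) and from 5.80 to 6.13 in wild-type kidneys (median 5.98). Knockout replicate 8, at 6.20, lay above all wild types, and 4 knockouts lay below them. The difference was -0.18 (SE 0.083), and -0.069 without the samples high in adrenal transcripts. The part of adrenal transcripts in it was not tested. A second Rrm2 probe set was near the bottom of the scale, at 2.83 to 3.11 in knockouts and 2.74 to 3.12 in wild types, and differed by -0.0032 (SE 0.060).

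The remaining 4 members, Odc1, Hpcal1, Asap2 and Itgb1bp1, overlapped broadly between genotypes. Odc1 had the widest spread, from 9.92 to 11.34 in knockouts (median 10.9) and from 10.2 to 11.7 in wild types (median 11.4), and its difference of -0.43 had an SE of 0.27. Asap2 read from 7.16 to 7.51 in knockouts (median 7.27) and from 7.16 to 7.69 in wild types (median 7.47), a difference of -0.17 (SE 0.075). Itgb1bp1 read from 7.59 to 7.76 in knockouts (median 7.70) and from 7.65 to 7.94 in wild types (median 7.74). It differed by -0.097 (SE 0.051), and its second, dimmer probe set by -0.034 (SE 0.080). Hpcal1 read from 8.12 to 8.78 in knockouts (median 8.36) and from 8.24 to 8.81 in wild types (median 8.45), and differed by -0.087 (SE 0.11, 95% interval -0.33 to 0.15), the smallest difference of the 10 genes.

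Whether samples held Y-linked transcripts is separate from the genotype contrast, and several members followed it. The comparison was added after the values had been seen, and the labels give no sex. In a limma fit with genotype and Y-linked transcripts as terms, 6 of 10 members passed at an adjusted p under 0.05, 2 higher and 4 lower in samples with Y-linked transcripts, where 24.9% of all probe sets passed. Of the 82 other measured genes within 10 Mb, 24 passed, 16 higher and 8 lower. Kidney cell markers moved with the same split. Podocyte markers averaged 8.25 to 8.44 in samples with Y-linked transcripts and 8.63 to 8.88 in those without. Distal nephron markers averaged 11.83 to 11.95 with and 11.97 to 12.20 without, and proximal tubule markers 12.42 to 12.53 with and 12.31 to 12.40 without. None of these 3 lists overlapped between the sets, and their part in the members' differences was not tested.

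Odc1 was 2.13-fold higher in samples with Y-linked transcripts, a difference of 1.09 (SE 0.096, limma adjusted p = 7.25e-07). It read from 10.77 to 11.73 in the 10 samples with them (median 11.3) and from 9.92 to 10.37 in the 5 without (median 10.1), with no overlap. In mouse kidney, Odc1 is a well-known androgen-induced gene. Within each set the knockout mean was the lower, at 11.1 ± 0.24 (n = 5) against 11.5 ± 0.19 in wild types (n = 5) with Y-linked transcripts, and 10.1 ± 0.12 (n = 3) against 10.3 ± 0.091 (n = 2) without.

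The other members that passed were smaller in size. Gm4419 differed by -0.43 (SE 0.066, limma adjusted p = 0.000155), Hpcal1 by -0.40 (SE 0.064, limma adjusted p = 0.000240) and Taf1b by -0.25 (SE 0.064, limma adjusted p = 0.00878), so all 3 were lower with Y-linked transcripts. Asap2 differed by -0.21 (limma adjusted p = 0.0178) and Kidins220 by 0.17 (limma adjusted p = 0.0471). Both of these calls were lost without the samples high in adrenal transcripts (limma adjusted p = 0.0567 and 0.119), and without those high in liver transcripts (limma adjusted p = 0.0907 and 0.169). As single samples were left out, the Asap2 call was lost without wild-type replicate 6 or 7 or knockout replicate 14 (limma adjusted p = 0.0533 to 0.0693). The Kidins220 call was lost without any 1 of wild-type replicates 3 to 7 or knockout replicates 8, 10, 13, 14 and 15 (limma adjusted p = 0.0605 to 0.104). Klf11 (-0.19), Rrm2 (-0.093), Itgb1bp1 (-0.037) and Adam17 (0.023) did not pass, though Klf11 passed without knockout replicate 15 (limma adjusted p = 0.0419). With array medians equalised the Asap2 call was lost as well (limma adjusted p = 0.067), and the Itgb1bp1 value turned to 0.012. In Odc1, Gm4419, Taf1b and Kidins220 the genotype difference and the Y-linked difference had opposite signs.

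**Figure D2:**
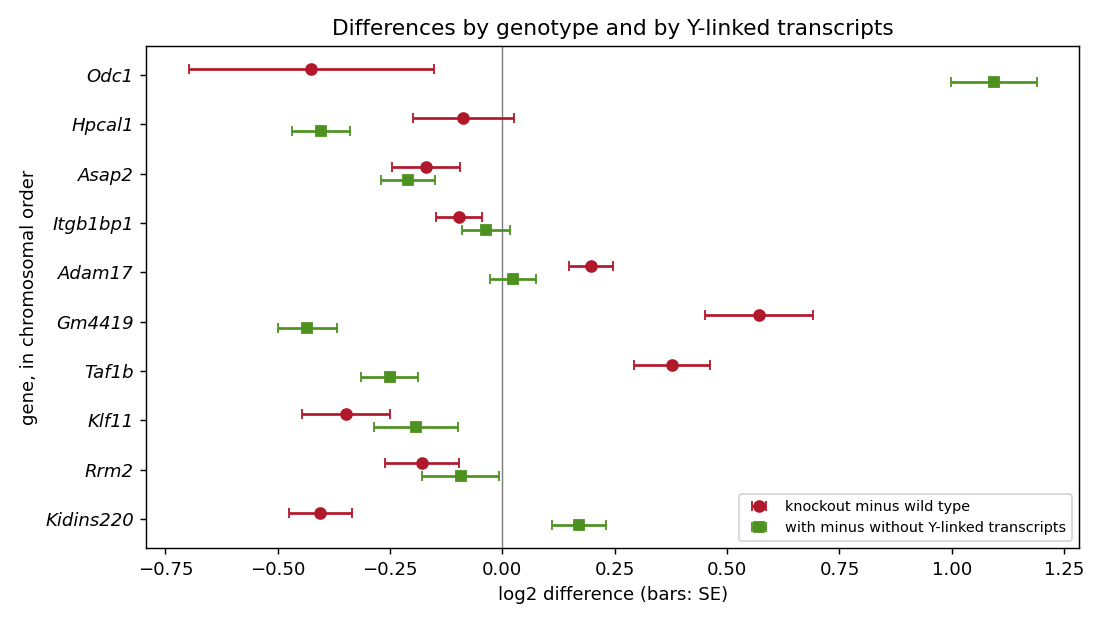
Log2 difference of each of the 10 genes by genotype (red circles, knockout minus wild type) and by Y-linked transcripts (green squares, with minus without), with SE bars, in chromosomal order. Odc1 has the largest Y-linked difference, 1.09, and Gm4419 the largest genotype difference, 0.57.

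The 82 measured genes within 10 Mb of Grhl1 that are not members show what surrounds them. At an unadjusted p under 0.05 in limma, 19 of 82 (23.2%) passed, against 5.55% of all probe sets tested. At an unadjusted p under 0.01, 7 of 82 (8.54%) passed, against 1.40%. The median size of their differences was 0.088, where all genes had 0.053 and the members 0.27. After adjustment, 3 of 23521 probe sets (0.0128%) passed in the whole table, and 2 of them belong to these 82 genes. The 2 were Greb1 and Cys1. Greb1, an oestrogen-responsive gene 27 positions away, differed by 1.62 (SE 0.14, limma adjusted p = 5.30e-05). The cilium gene Cys1, which lies between Klf11 and Rrm2, differed by -0.60 (SE 0.087, limma adjusted p = 0.0330). The call of Cys1 held in 2 of 15 fits that left out a sample, and that of Greb1 in 15.

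**Figure D3:**
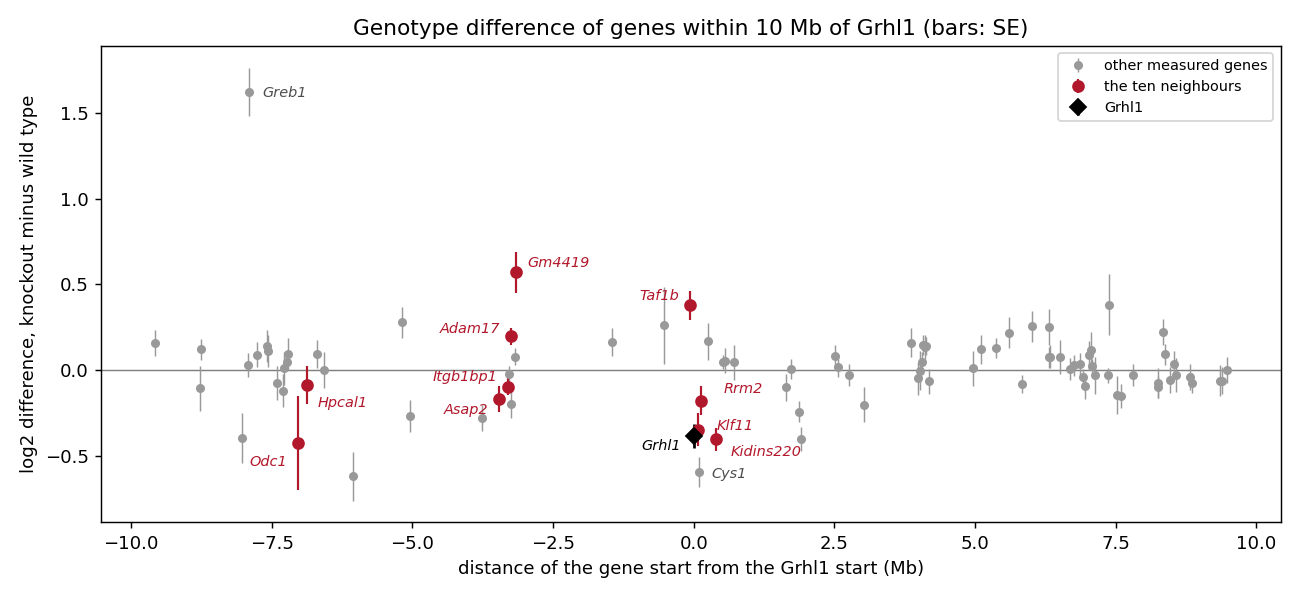
Log2 difference, knockout minus wild type, of every measured gene within 10 Mb of Grhl1 against the distance of its start from the Grhl1 start in Mb, with SE bars. The 10 members are red, Grhl1 is the black diamond and other genes are grey. Members above and below 0 stand side by side, and Greb1, 7.90 Mb away, exceeds them all.

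The shares by gene order can be given for non-members only, and the nearest set lacks the 8 members taken from it, so no trend is read from them. Of the 12 non-members within 10 positions, 2 (16.7%) had an unadjusted p under 0.05 in limma, of the 18 at 11 to 20 positions 6 (33.3%), of the 32 at 21 to 40 positions 8 (25%) and of the 20 at 41 to 60 positions 3 (15%). Non-members interleave with the members. Among the 12, Cys1 passed, and Iah1, an esterase gene next to Adam17, differed by -0.20 (SE 0.081, limma adjusted p = 0.826). Its neighbour Cpsf3, a pre-mRNA cleavage factor, differed by -0.021 (SE 0.047, limma adjusted p = 0.997). Ywhaq, a 14-3-3 protein gene between Adam17 and Gm4419, differed by 0.079 (SE 0.048, limma adjusted p = 0.973). On the other side Mboat2, a lysophospholipid acyltransferase gene, differed by 0.17 (SE 0.11), Id2, an inhibitor of basic helix-loop-helix factors, by 0.048 (SE 0.041), and the ubiquitin ligase gene Rnf144a by 0.0058 (SE 0.059), and none of these 3 passed. The remaining 5, 9030624G23Rik, Gm9292, Gm17746, Gm19340 and 4930480M12Rik, lay between -0.10 and 0.26 and did not pass.

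Other non-members with an unadjusted limma p under 0.01 were 5 genes 11 to 14 positions away. Lower in knockouts were Cmpk2, a mitochondrial nucleotide kinase (-0.40, SE 0.070), Rsad2, an interferon-induced antiviral enzyme (-0.24, SE 0.061), 5730507C01Rik (-0.62, SE 0.14) and 1700030C10Rik (-0.28, SE 0.076). Gm5784 was higher (0.28, SE 0.091). Their limma adjusted p lay between 0.0983 and 0.672, so none passed.

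The members' own pathways were listed beside them. Of 103 other genes on 9 lists, 93 were measured, 51 higher and 42 lower, with a median difference of 0.0071 beside 0.0086 over all genes. In limma 0 passed after adjustment, and 4 (4.30%) had an unadjusted p under 0.05, 3 higher and 1 lower, against 5.55% of all probe sets. A fit with a trended, robust prior also called 0. The 4 were Srm, the spermidine synthase downstream of Odc1 (-0.19, SE 0.078, limma adjusted p = 0.826), Klf12 (0.18, SE 0.063, limma adjusted p = 0.738) and Klf13 (0.13, SE 0.060, limma adjusted p = 0.896), relatives of Klf11, and the integrin activator Tln1 (0.084, SE 0.039, limma adjusted p = 0.896).

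For Taf1b, all 12 other RNA polymerase I genes listed were measured, and 6 were higher and 6 lower. Their lowest unadjusted p-values belonged to the termination factor Ttf1 (-0.087, SE 0.071, limma adjusted p = 0.982) and Tbp (0.049, SE 0.043, limma adjusted p = 0.984). Over all genes, 54.7% had higher means in knockout kidneys. Around Rrm2, 8 of 11 other genes of deoxyribonucleotide supply had higher means, and the lowest p-values were those of Tyms (0.17, SE 0.087, limma adjusted p = 0.935) and Dck (0.088, SE 0.058, limma adjusted p = 0.973). In the Adam17 list 10 of 14 had higher means, and the lowest p-values were those of the ligand Btc (0.14, SE 0.081, limma adjusted p = 0.967) and the Adam17 regulator Rhbdf1 (0.071, SE 0.053, limma adjusted p = 0.979). Sat1, which breaks down polyamines, differed by -0.093 (SE 0.049, limma adjusted p = 0.937), and Krit1, a partner of Itgb1bp1, by -0.059 (SE 0.040, limma adjusted p = 0.975). The receptor Ntrk3 (0.11, SE 0.096) and the adaptor Crk (-0.030, SE 0.040) had the lowest p-values of the Kidins220 list, Arf3 (0.068, SE 0.049) and Arf4 (-0.089, SE 0.065) those of the Asap2 list, and Hpca (0.089, SE 0.084) and Vsnl1 (0.38, SE 0.40) those of the Hpcal1 list. None of these 6 passed.

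How the members varied together was measured on each sample's deviation from its genotype mean, in the 10 samples with Y-linked transcripts, since 6 of the 10 members differed by those transcripts. The plan was a description over all 15 samples without a test. The restriction to 10 samples and the permutation test were added after values had been seen. Over 45 pairs, Pearson's r ran from -0.86 to 0.82. Asap2 and Adam17, 4 positions apart, deviated together with r = 0.82 (exact permutation within genotypes, two-sided, p = 0.000833, adjusted over 45 pairs 0.0375) and Spearman's rho = 0.93 (exact permutation p = 0.00201, adjusted 0.0906). Without the 2 samples farthest from the Adam17 median r was 0.80. Over all 15 samples it was 0.18. Klf11 and Rrm2 deviated in opposite directions, r = -0.86 (exact permutation p = 0.00868, adjusted 0.195), with rho = -0.77 (exact permutation p = 0.0149, adjusted 0.224). Without the 2 samples farthest from the Rrm2 median r fell to -0.40, so the size of r depended in part on them. Leaving out samples by the Klf11 median was not tried. No other pair passed after adjustment.

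**Figure D4:**
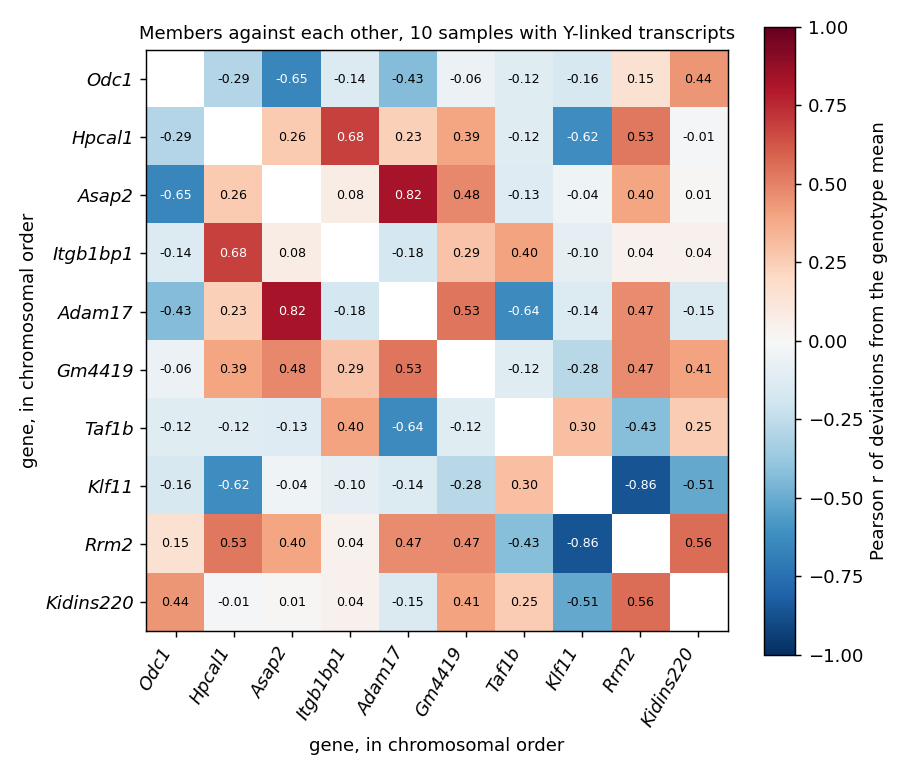
Pearson r between the 10 genes, in chromosomal order, of deviations from the genotype mean in 10 samples with Y-linked transcripts, with red positive and blue negative. Asap2 with Adam17 (0.82) and Klf11 with Rrm2 (-0.86) stand out, and adjacent genes do not form a block.

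The genes most like each member, by r of deviations from the genotype mean over all 15 samples, were found without regard to position. The split by Y-linked transcripts was not removed from these values. For Taf1b the closest was Taf1d (r = 0.92), followed by Tmem198b (0.91). Within the 10 samples with Y-linked transcripts the Taf1d value was 0.76. For Hpcal1 they were Gm17753 (0.97) and Mboat2 (0.97), for Odc1 Hykk (0.99) and Tmco3 (0.98), for Asap2 Yap1 (0.92) and Camk2d (0.92), and for Gm4419 Ano9 (0.96) and Pde3a (0.95). For Klf11 they were Smyd4 (0.91) and Timm21 (0.87), for Kidins220 Rpf2 (0.87) and Gna12 (0.86), for Itgb1bp1 Fis1 (0.89) and Pde7a (0.85), for Adam17 Ppcdc (0.86) and Mir300 (0.85), and for Rrm2 Olfr1314 (0.88) and 9430037G07Rik (0.86). Mboat2 is the only one of these among the 20 nearest genes of Grhl1. Within the 10 samples with Y-linked transcripts these 20 values ran from 0.55 (Smyd4) to 0.98 (Mir300). These are descriptions of 15 samples chosen as the highest of 22180 genes, and carry no test.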

How the data were processed

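Kidney RNA, 500 ng a sample, was prepared with the Ambion WT Expression kit for 15 arrays, 1 a mouse, per the labels' protocols. What the authors deposited is 1 log2 value for each probe set and array, from RMA, per the submitters' processing notes. The software, its version and the array's genome build are not given in the sources used here. RMA equalises the arrays, so a shift of most transcripts would be removed, and dim probe sets understate a change. The number of arrays limits the precision.

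The table held 41345 probe sets, array medians of 5.51 to 5.59 and pairwise correlations of 0.976 to 0.991. The annotation gave 1 gene to 23521 probe sets, several to 1814 and none to 16010, and 23328 symbols were updated by Entrez ID to GRCm38.p6. The probe set with the highest mean stood for a gene. Genes were placed by Entrez ID alone, in order of their start.

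Genotypes came from the sample titles. The fit was limma 3.58.1 in R 4.3.3, lmFit and eBayes without trend, over all probe sets with 1 gene, with Benjamini-Hochberg adjustment and a threshold of 0.05. It was tested on simulated data. Y-linked transcripts counted as present above the midpoint of their lowest and highest mean, and a sample as high in liver or adrenal transcripts where its marker mean exceeded the median by over 1. Alternatives were the prior, array centring, quantile normalization, a filter on dim probe sets, the Y-linked mean as covariate, subsets of samples, the mean of a gene's probe sets and the exact rank-sum test. The text names all members, the genes within 10 positions, those within 10 Mb at an unadjusted p under 0.01, 2 genes a pathway list and the 2 genes most like each member. The comparison by Y-linked transcripts, its alternatives and the count of separation within both sets were added after values were seen. So were the permutation tests of member pairs and their restriction to samples with Y-linked transcripts. The members and lists were chosen with earlier results of these data known.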

Additional observations from a re-analysis of the deposited data

Results flagged for a closer look

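In 62 groups of 7 or 8 samples (the members, Grhl1 and the named neighbours, in each genotype), 4 held a sample far from the others by Dixon's criterion. Chance flags about 1 in 20 groups. In Asap2, knockout replicate 14 read 7.509 and the other knockouts 7.164 to 7.322. In Cpsf3, wild-type replicate 3 read 9.518 and the other wild types 9.648 to 9.728. In Id2, wild-type replicate 5 read 12.48 and the others 12.37 to 12.41. In 4930480M12Rik, wild-type replicate 2 read 3.618 and the others 3.041 to 3.273.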

How the results depend on the processing

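All 238 values of the members' genotype differences under the alternatives kept their direction, and 234 moved by less than 1 SD within groups. The 4 that moved were Taf1b at 0.19, Asap2 at -0.32 and Klf11 at -0.74 in samples without Y-linked transcripts, and Adam17 at 0.29 without the samples high in adrenal transcripts. Hpcal1 ranged from -0.14 to -0.039 as each sample was left out, and Odc1 from -0.57 to -0.31. Rrm2 was at -0.091 as the mean of its probe sets, and Odc1 at -0.64 without the samples high in liver transcripts. Gm4419 and Rrm2 gave no value with dim probe sets left out. The genes within 10 Mb past the adjusted threshold numbered 2. Grhl1 was left out of this count, and in the same fit it did not pass (limma adjusted p = 0.113). With dim probe sets left out, the genes past the threshold numbered 0. Greb1 (mean 6.05, filter at 6.18) was removed there and not tested again, while Cys1 (mean 7.08) was tested again and did not pass. By the exact rank-sum test the genes past the threshold also numbered 0. With 8 and 7 samples, and 29 of 23521 probe sets without overlap, no probe set could pass that test after adjustment. The genes past the threshold numbered 1 within samples with and within those without Y-linked transcripts. They also numbered 1 without samples high in adrenal or in liver transcripts, and 5 with the Y-linked mean as covariate. They ranged from 1 to 4 as each sample was left out. The count of 4 came without knockout replicate 8. These counts run over all 92 genes, the members included, and are no test of the members. Those at an unadjusted p under 0.01 numbered 12, 7 within samples without Y-linked transcripts, and 11 to 17 as each sample was left out. Pathway genes at an unadjusted p under 0.05 numbered 4, and 7 with the Y-linked covariate. Members past the threshold by Y-linked transcripts numbered 4 to 6 as each sample was left out, and Itgb1bp1 turned to 0.012 with array medians equalised. The causes were not tested. No paired analysis was possible because the groups share no replicate number.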
